A study of Mus musculus with 22 samples.

Results

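The 9 genes Pcp2, Car8, Ppp1r17, Rgs8, Arhgef33, Calb1, Slc1a6, Atp2a3 and Homer3 are a list of Purkinje cell genes that was chosen from how they varied in these same libraries. They were found by symbol in both count tables, as 9 of 24421 genes, and all 9 passed the filter on low counts in males and in females. The libraries were total RNA of the right brain hemisphere of C57BL/6JOlaHsd mice (C57B6/J OlaHsd in the labels), an inbred strain, housed with 4 mice per cage. The mice were aged 10 to 12 weeks at the tube test and were killed some days after their rank was set. Social rank was set by tube test contests, where 1 mouse forces its opponent backwards out of a tight tunnel. The males were 7 of high (dominant) and 7 of low (submissive) rank, the females 4 of each rank, and the labels give no other treatment or allele for any group. A dominant and a submissive mouse with the same number came from the same cage according to the library names, and each library is 1 animal. For females 3 and 4 those names give a group in place of a cage number, and the study states that some females were regrouped and tested again, so their pairs are called cages here only by that shared group name. The sexes were sequenced as separate projects, and sex and project cannot be told apart.

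Purkinje cells are the large GABAergic neurons that form the only output of the cerebellar cortex. Granule cells drive them through parallel fibres, and glutamate signalling on their dendrites runs through Gq and phospholipase C to IP3 receptors that release stored calcium. Calcium buffers, calcium pumps, scaffolds and regulators of G proteins are therefore prominent among the genes that mark these cells. Calbindin and several of the others are also made by neurons outside the cerebellum.

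Dominant male 1 held no Pcp2 read and submissive male 4 held fewer reads of these genes than nearly every other male, so levels are given as a percentage of the median of the other 12 males. The unit is CPM, the read count scaled to library size with edgeR's TMM factors, computed within each sex. Females were set against the median of the 8 females. In dominant male 1 the 11 genes of a granule cell list ran from 0.315% for Gabra6, 0.727% for Cbln3 and 3.94% for Fat2 to 56.1% for Grin2c and 81.3% for Rab37 of the median of the 12 males, with the other 6 between 15.8% and 44.2%. The sum of the 11 was 12.8% there, 66.3% in submissive male 4, 51.5% in dominant male 5 and between 51.5% and 114% over the 12 males. The right hemisphere libraries thus differed in their cerebellar markers, and values without dominant male 1 or submissive male 4 are given beside the rank comparison, the lines at zero signal and the genes most like the list. Fewer Purkinje cells and less RNA per cell cannot be told apart in such bulk samples.

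Promoter sequences are shown for a pair of genes that were low in dominant male 1, Pcp2 at 0% and Arhgef33 at 6.86% of the reference, and for a pair with higher levels there, Rgs8 and Slc1a6. Each is the 250 bases before a transcription start, 5′ to 3′ on the strand of the gene, from RefSeq on GRCm38.p6. Where RefSeq gives several starts, 4 for Pcp2 and 3 for Rgs8, the one nearest to the gene start of the count table was taken, and positions refer to it. Capitals mark AGGTCA or, on the opposite strand, TGACCT, the half-site recognized by nuclear receptors of the ROR family.
Pcp2, chr8:3625548-3625797, minus strand: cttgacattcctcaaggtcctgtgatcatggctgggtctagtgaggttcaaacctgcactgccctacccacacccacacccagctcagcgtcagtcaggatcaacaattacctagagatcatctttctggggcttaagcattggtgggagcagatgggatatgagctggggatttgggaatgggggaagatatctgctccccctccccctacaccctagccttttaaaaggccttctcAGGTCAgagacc
Arhgef33, chr17:80307157-80307406, plus strand: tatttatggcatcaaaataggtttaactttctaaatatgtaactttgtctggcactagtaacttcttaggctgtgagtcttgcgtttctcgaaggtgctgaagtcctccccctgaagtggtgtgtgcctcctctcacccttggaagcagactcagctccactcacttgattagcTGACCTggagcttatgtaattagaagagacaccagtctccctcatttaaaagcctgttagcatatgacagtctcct
Rgs8, chr1:153652787-153653036, plus strand: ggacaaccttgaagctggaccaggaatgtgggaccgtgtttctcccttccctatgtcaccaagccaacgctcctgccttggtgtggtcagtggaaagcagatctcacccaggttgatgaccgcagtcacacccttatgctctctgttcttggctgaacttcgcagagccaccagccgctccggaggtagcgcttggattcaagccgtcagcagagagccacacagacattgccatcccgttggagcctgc
Slc1a6, chr10:78780246-78780495, plus strand: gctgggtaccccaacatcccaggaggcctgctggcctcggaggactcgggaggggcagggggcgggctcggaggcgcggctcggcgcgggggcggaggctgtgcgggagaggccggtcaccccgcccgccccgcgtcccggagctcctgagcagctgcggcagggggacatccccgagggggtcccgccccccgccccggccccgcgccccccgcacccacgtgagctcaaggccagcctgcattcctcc

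RefSeq windows were matched for 6 of the 9 genes, the above 4 with Atp2a3 and Homer3. Car8, Ppp1r17 and Calb1 had no entry in the table used. AGGTCA on either strand was present in 3 of the 6 windows. In Pcp2 it lay 12 to 7 bases before the start on the strand of the gene, in Arhgef33 76 to 71 bases before it on the opposite strand, and in Homer3 157 to 152 bases before it on the opposite strand. Of all 32851 windows of this length, 14% held these letters. TATAAA on either strand was in 0 of the 6 windows and in 12.4% of all windows. The windows of Arhgef33 and Pcp2 had a GC content of 44.0% and 52.8%, that of Rgs8 57.2%, those of Atp2a3 and Homer3 66.8% and 68.0%, and that of Slc1a6 78.8%. A match is a description of the letters and not a site in use.

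The genes were not expressed at like levels. Per kilobase of exon, the median level over the 12 males was highest for Calb1, at 111.7 CPM per kb, followed by Car8 at 66.3, Pcp2 at 62.4 and Rgs8 at 45.0 CPM per kb. Homer3 followed at 19.3, Ppp1r17 at 15.9, Slc1a6 at 15.7, Arhgef33 at 10.8 and Atp2a3 at 9.80 CPM per kb. Calb1 did not overlap Car8 in range over these males, and Rgs8 did not overlap Homer3. Slc1a6 did not overlap Arhgef33 either, whereas the other neighbours in this order overlapped. The 8 females gave the same order, from 139.2 CPM per kb for Calb1 to 9.10 CPM per kb for Atp2a3. In dominant male 1 the order was different, with Calb1 at 56.1 and Rgs8 at 20.6 CPM per kb far above the others. Slc1a6 had 4.88, Homer3 3.33 and Car8 3.18 CPM per kb, so Car8 ranked behind Rgs8 and Slc1a6. Homer3 and Car8, with 115 and 257 counts, were too close to be ordered, and Homer3 shares exon bases with Ddx49.

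**Figure D1:**
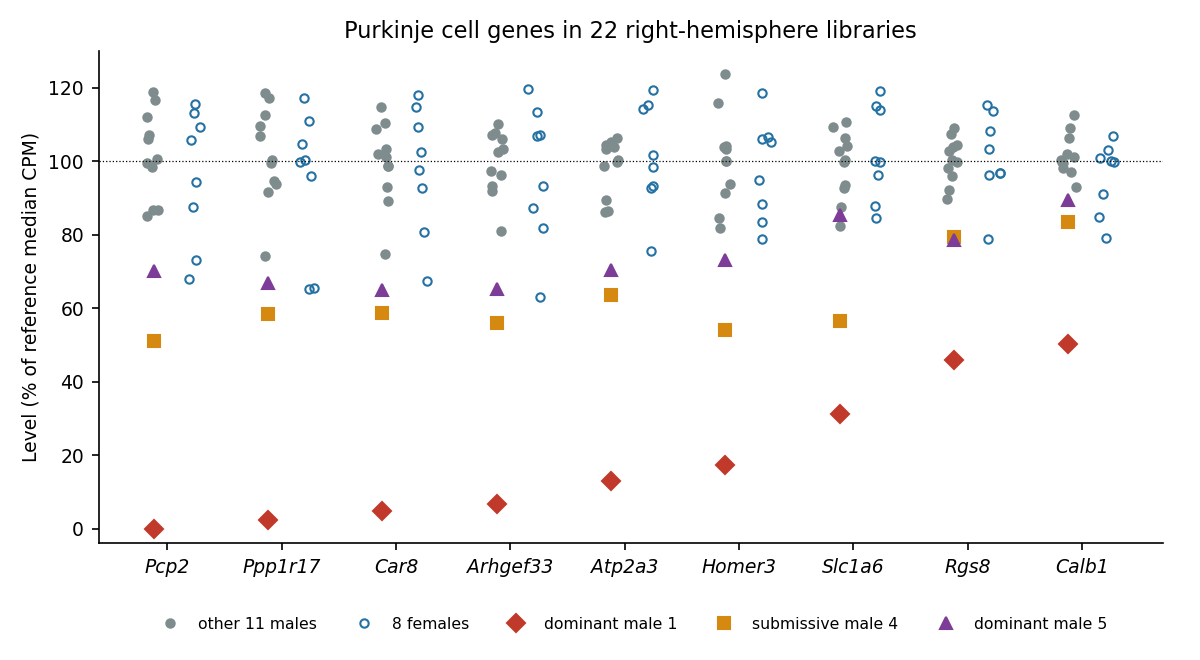
Level of the 9 Purkinje cell genes in each of 22 libraries, as a percentage of the median CPM of the 12 reference males or of the 8 females (y axis), with genes ordered by their level in dominant male 1. Each point is 1 library. Dominant male 1 lies lowest for every gene, from 0% for Pcp2 to 50.2% for Calb1, and submissive male 4 lies between 51.1% and 83.3%.

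Among the regulators of G protein and kinase signalling, Pcp2 and Ppp1r17 were near 0 in dominant male 1 and Rgs8 was not. Pcp2, the GoLoco protein that binds Gi and Go subunits and the classical marker of Purkinje cells, lies on chromosome 8 at 3623371 to 3625545 on the minus strand (mm10). Its level was 0, 33.8 and 45.5 CPM as the lowest, the median and the highest of the 7 dominant males, and 19.9, 39.2 and 46.3 CPM in the 7 submissive males. The dominant females had 45.7, 55.3, 59.0 and 38.2 CPM and the submissive females 57.1, 35.5, 60.4 and 49.2 CPM. The ranks overlapped in both sexes, and the 0 of dominant male 1 was far from the next lowest male, submissive male 4. A count of 0 allows up to 3 counts, here 0.212 CPM or 0.545% of the median of the 12 males, and the Poisson interval of that 0 reaches 0.670%. Of the 625 exon bases of Pcp2, 188 are shared with Pet100 on the opposite strand.

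Ppp1r17 encodes a substrate of cGMP-dependent protein kinase that inhibits protein phosphatases. It had 9 counts in dominant male 1, which was 2.31% of the median of the 12 males (95% Poisson interval 1.06% to 4.38%). Its values in the 12 males ran from 18.5 to 32.7 CPM, with a median of 27.6 CPM. Rgs8, which speeds up GTP hydrolysis by G protein alpha subunits, had 1688 counts and 119.5 CPM in dominant male 1, against 204.9 to 284.8 CPM in the 12 males. The library without Pcp2 reads thus held 45.8% of the usual Rgs8 level (interval 43.6% to 48.0%). Poisson intervals and the limit for a count of 0 cover counting error only.

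Among the genes of calcium handling and the synapse, Car8, Atp2a3 and Homer3 were low in dominant male 1 and Calb1 stayed highest of all 9. Car8, a carbonic anhydrase-related protein without enzyme activity that binds the IP3 receptor, had the highest CPM of the list in the 12 males, with a median of 379.6 CPM and a range of 246.8 to 435.0 CPM. Dominant male 1 had 18.2 CPM from 257 counts, 4.79% of that median (interval 4.23% to 5.42%). Atp2a3, the calcium pump SERCA3, had 5.81 CPM there, or 12.9% of a median of 45.2 CPM. Homer3, a postsynaptic scaffold that binds IP3 receptors, had 8.14 CPM, or 17.3% of a median of 47.1 CPM, and shares 874 of its 2445 exon bases with Ddx49.

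Calb1, the calcium buffer calbindin, had 160.8 CPM from 2271 counts in dominant male 1, which was 50.2% of the median of the 12 males (interval 48.1% to 52.3%). Its level was 160.8, 310.4 and 360.5 CPM as the lowest, the median and the highest of the dominant males, and 266.8, 321.5 and 349.4 CPM in the submissive males. The dominant females had 399.4, 398.5, 410.6 and 338.0 CPM and the submissive females 402.7, 315.3, 426.1 and 363.1 CPM. Calb1 varied least of the 9 genes over the 12 males, with an SD of 6.42% of the median, whereas Ppp1r17 varied most, with an SD of 16.0%.

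Slc1a6, the glutamate transporter EAAT4 of Purkinje cell spines, had 10.2 CPM in dominant male 1, or 31.1% of a median of 32.7 CPM (interval 26.3% to 36.6%). Arhgef33, a guanine nucleotide exchange factor by its sequence, had 2.41 CPM from 34 counts, or 6.86% of a median of 35.1 CPM (interval 4.75% to 9.59%). It shares 551 of 3261 exon bases with Gm10190 on the opposite strand.

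Of the 9 genes, 3 were under 5% of the reference level in dominant male 1 and 3 were over 25%. The nearest values were those of Car8 at 4.79% and Arhgef33 at 6.86% on the sides of the lower limit, and of Homer3 at 17.3% and Slc1a6 at 31.1% on the sides of the upper one. Over all 14737 genes tested in males, 0.095% were under 5% and 99.6% were over 25%, with a median of 100%. The list was chosen from such differences, so these counts only describe it. The 14 genes under 5% were Pcp2, Ppp1r17 and Car8, the granule cell genes Gabra6, Cbln3 and Fat2, and Il22, Gm13944, Sycp1, Crtam, Cnpy1, Nrk, Slc5a1 and Hes3. Il22 has a near-identical copy, Iltifb, and its reads are uncertain.

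In submissive male 4 the list was lower by a more even amount. Pcp2 was at 51.1%, Homer3 at 54.1%, Arhgef33 at 55.9%, Slc1a6 at 56.6%, Ppp1r17 at 58.3% and Car8 at 58.8% of the median of the 12 males. Atp2a3 was at 63.6%, Rgs8 at 79.3% and Calb1 at 83.3%. Thus 6 of 9 were under 60%, against 0.855% of all genes tested, and 8 of 9 were below the whole range of the 12 males. The exception was Rgs8, for which dominant male 5 had 78.5%. The genes that kept most in dominant male 1, Calb1 and Rgs8, also stood highest in submissive male 4, whereas Slc1a6 did not.

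Within the 12 males, dominant male 5 was lowest for 8 of the 9 genes, from 65.0% for Car8 to 89.4% for Calb1. For Slc1a6, at 85.3%, another male was lower. Among the females, submissive female 2 and dominant female 4 were lowest for Pcp2, at 67.9% and 73.0% of the female median, and the highest, submissive female 3, had 116%. The lowest value of any gene in a female was 63.0%, so no female library came near the levels of dominant male 1 or of Pcp2 in submissive male 4.

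Pcp2 was then set against the granule cell list in each library. The ratio of the percentages was 0.828 to 1.38 over the 12 males, with a median of 1.08, and 0.903 to 1.12 over the 8 females, with a median of 0.991. Submissive male 4 had 0.771, so Pcp2 was lower there relative to the granule cell genes than in any other library except dominant male 1. Dominant male 5 had 1.36 and submissive male 6 had 1.38, which were the highest ratios. Males of cages 5 to 7 had ratios of 1.07 to 1.38 (n = 6) and males of cages 1 to 4 without dominant male 1 had 0.771 to 1.19 (n = 7), ranges that overlapped. This division by cage was made after the values were seen and was not tested.

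**Figure D2:**
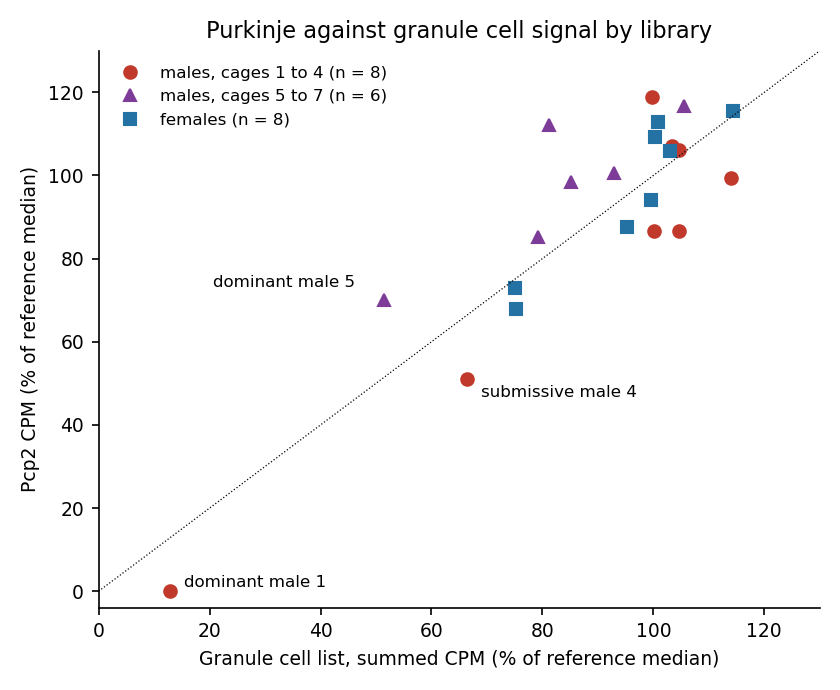
Pcp2 (y axis) against the summed granule cell list (x axis), both as a percentage of the reference median, with 1 point per library and the dotted line marking equal percentages. Dominant male 1 lies at 0% and 12.8%, submissive male 4 at 51.1% and 66.3%, and dominant male 5 at 70.1% and 51.5%.

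Lists of other regions and cell types were measured in the same libraries. In dominant male 1 the 4 Bergmann glia and cerebellar interneuron genes summed to 27.1% of the reference (81.7% to 121% over the 12 males). The 8 brain stem genes summed to 54.6% there, with 2 of the 8 at 0, against 60% to 182% over the 12 males. In submissive male 4 the same lists were at 59.8% and 49.2%. Cortex and hippocampus genes were at 119% and 112% in dominant male 1 and submissive male 4 (88.9% to 119% over the 12 males). Striatum genes were at 109% and 99.2% (86.2% to 106%). Choroid plexus genes, whose sum is mostly Ttr, were at 74.2% and 58.3% (72.3% to 134% over the 12 males). The endothelial and blood list, whose sum is nearly all Cldn5 and Flt1, was at 78.0% and 79.0% (77.6% to 116%). Of its 4 genes 2 were at 0 in dominant male 1, so it gives no measure of blood cells. Thalamus genes were at 84.0% and 91.3% (85.9% to 114%), and midbrain dopamine genes at 112% and 89.0% (74.3% to 117%). Hypothalamus genes were at 138% and 109% (76.3% to 124%) and olfactory bulb genes at 93.9% and 102% (60.5% to 196%). Single hypothalamus genes in dominant male 1 ran from 96.3% for Avp to 236% for Agrp, which had 6 counts there. The part of the brain stem or the choroid plexus in the levels of the Purkinje cell genes was not tested.

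How much of each gene remains without Purkinje cell signal was also estimated from the other libraries. A straight line of each gene on Pcp2 was fitted over the 13 males other than dominant male 1, and its value at zero Pcp2 was read. It was 62.7% ± 3.9 (SE) for Calb1, 51.0% ± 4.5 for Rgs8, 30.4% ± 10.3 for Slc1a6 and 27.5% ± 5.2 for Atp2a3. It was 15.5% ± 8.8 for Arhgef33, 10.7% ± 7.2 for Car8, 10.2% ± 10 for Homer3 and 9.3% ± 11.4 for Ppp1r17. Calb1 and Rgs8 stood highest in these lines and in the counts of dominant male 1, which the lines did not use. Atp2a3 and Calb1 had higher values from the lines than in dominant male 1, by more than 2 SE. Without submissive male 4, the library with the lowest Pcp2 of the 13, neither difference reached 2 SE, with Calb1 at 60.8% ± 5.7 and Atp2a3 at 26.2% ± 7.8. Slc1a6 was then at 48.2% ± 13.2 and Rgs8 at 43.3% ± 5.9, so their order turned, while Arhgef33 was at 18.6%, Homer3 at 13.1%, Ppp1r17 at 3.6% and Car8 at 3.2%, each within 2 SE of 0.

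The 8 females, a separate table, gave 48.9% ± 8.3 for Calb1, 44.5% ± 10.2 for Rgs8 and 40.5% ± 11.5 for Slc1a6 at zero Pcp2. Car8 had 9.9%, Arhgef33 1.8% and Ppp1r17 −1.7%, each within 2 SE of 0. Homer3 had 30.5% ± 10 and Atp2a3 31.0% ± 13, and for these 8 genes no value differed from that of dominant male 1 by 2 SE. The lines reach well beyond the measured range, since no female had less than 67.9% of Pcp2, and this estimate was chosen after the data were seen. With the granule cell list in place of Pcp2, the levels at zero in the 13 males had a median of 41.3% over the 9 genes, which became 59.1% without submissive male 4 and 26.2% without dominant male 5, and Pcp2 itself had 30.6% ± 22.5.

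**Figure D3:**
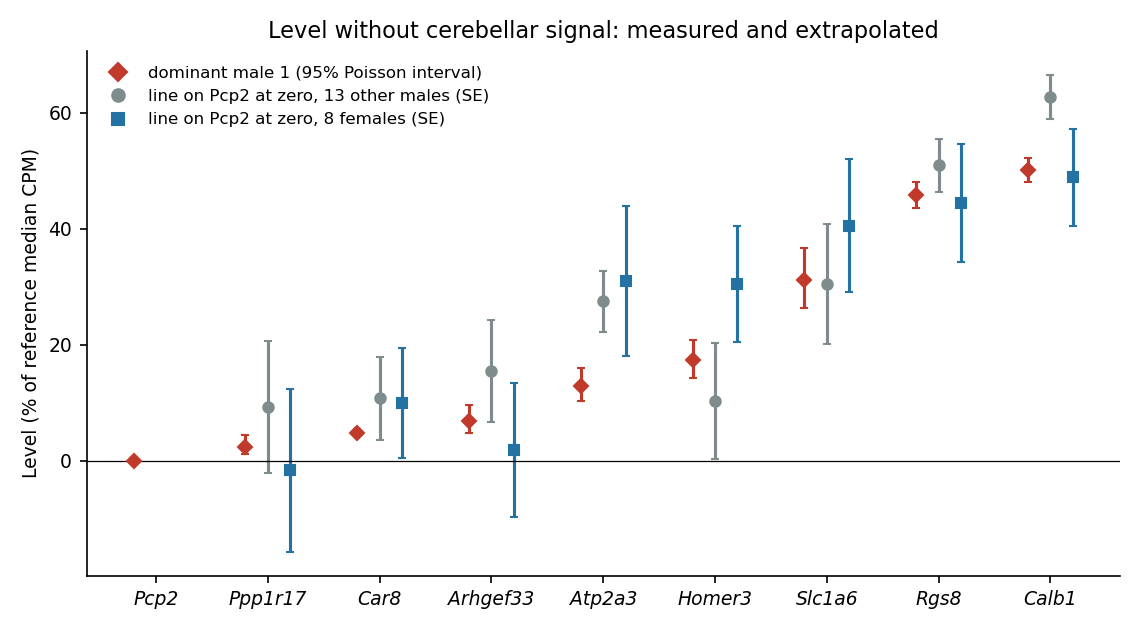
Level of each gene as a percentage of the reference median (y axis) as measured in dominant male 1 with its 95% Poisson interval, and as read at zero Pcp2 from lines over 13 other males and over 8 females with the SE. Pcp2 has only its measured 0%. Calb1 and Rgs8 are highest in the measured values and in both sets of lines.

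The values of dominant male 1 were also used to compute the other libraries. Each gene was taken as the part left in dominant male 1 plus a part that moved with Pcp2. For the 8 genes other than Pcp2 in the 13 other males, 95 of 104 measured values were within 10 percentage points of the computed one, and 66 of 104 were within 10 points of an unchanging 100%. The 9 genes were chosen for varying together with dominant male 1 low, so these counts only describe them. The median absolute difference was 3.93 points and the largest was 14.8 points. Without submissive male 4 it was 87 of 96 values, with a median absolute difference of 3.71 points. The computation needs dominant male 1 and has no version without it. Calb1 lay within −3.0 and 7.6 points in all 13 males, whereas Slc1a6 reached −14.8 and Ppp1r17 −14.4 points. Each gene and Pcp2 come from the same library, so this is a description over shared samples.

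A longer list of 32 other genes used in Purkinje cells had a median of 81.0% in dominant male 1. Of these, 9 were under 60% there, 12 were between 60% and 90% and 11 were over 90%. Over all genes tested in males, 1.96% were under 60% and 81.1% over 90% in this library. The 9 include 1 gene at 0 counts whose median in the 12 males was under 1 CPM. Among the genes of Gq signalling, the G protein subunit Gnaq was at 101%, phospholipase Plcb4 at 73.3% and the IP3 receptor Itpr1 at 64.6%. The calcium buffer Pvalb was at 44.1%, the calcium store protein Casq2 at 40.0%, and the IP3 phosphatase Inpp5a at 49.3%. Pcp4 was at 88.6% and Gad1, the enzyme of GABA synthesis, at 95.3%. By this measure Rgs8 and Calb1 lay near Pvalb and Inpp5a and far from Pcp2.

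The genes most like the list depended on whether dominant male 1 was counted. Over all 22 libraries, the 10 genes outside the list with the highest Pearson r to the mean log2 CPM of the 9 genes were Nrk, Gabra6, Crtam, Cbln1, Cbln3, Sycp1, Hes3, En2, Dao and Iltifb, from 0.988 to 0.966. Over the 21 libraries without dominant male 1 they were Snrk, Stk17b, Nrep, Fam107b, Mybpc1, Cep76, Sbk1, Gdf10, B3gnt5 and Itpr1, from 0.950 to 0.919. The sets of 10 had 0 genes in common. Leaving out submissive male 4 as well kept 7 of the second 10, and leaving it out alone kept 9 of the first 10. In dominant male 1 the second set was between 19.9% for B3gnt5 and 64.6% for Itpr1. The 9 genes themselves had an r of 0.950 to 0.999 with their own mean over 22 libraries and of 0.905 to 0.987 over 21. These values describe the libraries, which share their depth across genes, and the sexes were centred separately.

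The study asked whether brain expression differs with social rank. In males, 0 of the 9 genes were called by edgeR's quasi-likelihood test at a threshold of 0.05 with Benjamini-Hochberg adjustment, as were 0% of the 14737 genes tested. At an unadjusted p under 0.05 the test found 0 of the 9 genes and 1.32% of all genes, and DESeq2 also called 0 of the 9. All 9 fitted values were lower in dominant males, from −0.10 for Slc1a6 to −0.30 ± 0.36 (SE, log2) for Car8, with an adjusted p of 1.00 in edgeR. Pcp2 was 31.5 ± 15.1 CPM (SD, n = 7) in dominant and 37.5 ± 8.73 CPM (n = 7) in submissive males, with a log2 difference of −0.26 ± 0.37 (SE). The median over the 9 genes was −0.22, against −0.0015 over all genes.

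That median depended on dominant male 1 and on submissive male 4. Without dominant male 1 it was −0.03 and 7 of the 9 genes were lower in dominant males. Without submissive male 4 it was −0.30. Without both it was −0.11, with all 9 lower. Pcp2 was then 36.7 ± 6.55 CPM (n = 6) against 40.5 ± 4.38 CPM (n = 6), with a log2 difference of −0.14 ± 0.10 (SE). In an analysis added after the data were seen, the cages of both libraries were left out and the cage was entered as a block over the other 5 cages. The 9 genes were again lower in dominant males, with a median of −0.14. In edgeR the p before adjustment was below 0.05 for Pcp2, Car8, Rgs8, Arhgef33 and Atp2a3, and for 2.21% of all genes. Both cages were left out for their levels of these same genes, which vary together, so these 5 values cannot decide on rank. All 9 were lower in the dominant mouse of cage 1 (median −2.72) and higher in that of cage 4 (median 0.59). With the cage as a block over all 7 cages, 0 of the 9 were below that limit. In edgeR's adjustment over all genes each of the 9 had an adjusted p of 1.00, so none was called.

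In females, 0 of the 9 genes were called by edgeR, against 0.0942% of the 14865 genes tested. At an unadjusted p under 0.05 it was 0 of the 9 genes and 10.5% of all genes, and DESeq2 called 0 of the 9. The log2 difference ran from −0.06 ± 0.09 (SE) for Slc1a6 to 0.07 ± 0.13 for Arhgef33. Single libraries turned these directions. Without submissive female 2 all 9 genes were lower in dominant females, with a median of −0.11 and 1 gene at an unadjusted p under 0.05 in edgeR, and without submissive female 3 0 of 9 were lower, with a median of 0.10. Pcp2 was 49.5 ± 9.44 CPM (SD, n = 4) in dominant and 50.6 ± 11.1 CPM (n = 4) in submissive females. Differences as large as these errors, or somewhat larger, could not be called with 4 animals per rank over 14865 genes.

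Within most cages the 9 genes differed in the same direction, but which mouse was lower varied between cages. In cages 1, 2, 5 and 7 of the males all 9 were lower in the dominant mouse, with median log2 differences of −2.72, −0.09, −0.50 and −0.27. In cage 4, which holds submissive male 4, all 9 were higher in the dominant mouse, by a median of 0.59. In cages 3 and 6, 1 of 9 was lower in the dominant mouse, with medians of 0.05 in each. In females all 9 were lower in the dominant mouse of cages 1 and 4, 8 of 9 in cage 3 and 0 of 9 in cage 2, where the median was 0.43. Submissive female 2, the lowest female for Pcp2, belongs to cage 2. Pcp2 itself was lower in the dominant mouse in 4 of 7 male and 3 of 4 female cages.

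**Figure D4:**
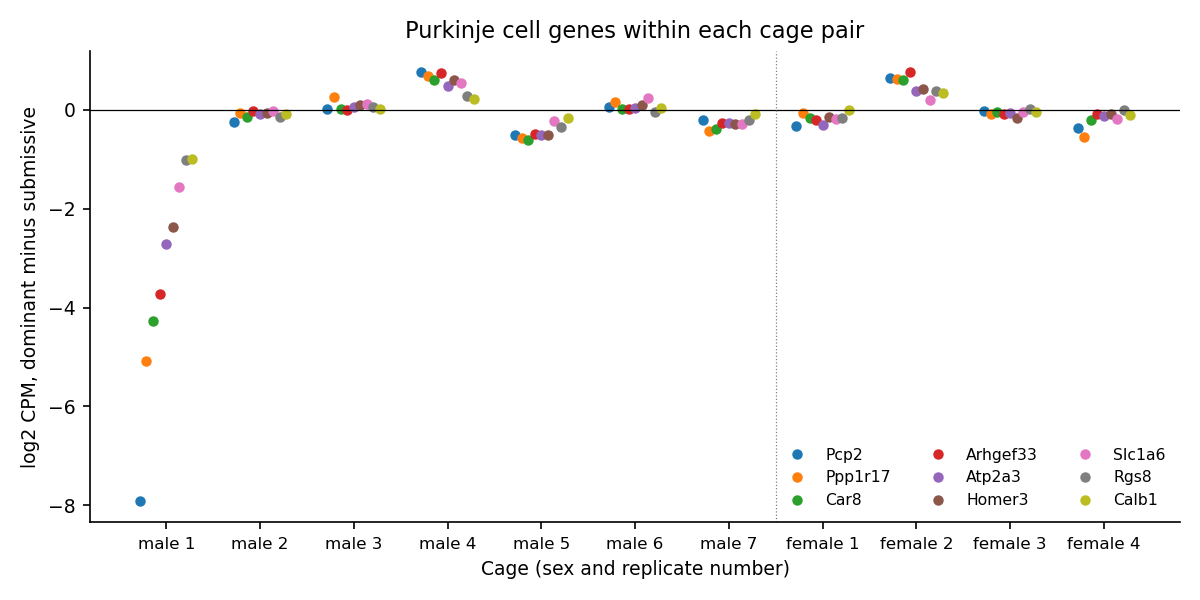
Difference of log2 CPM (y axis, prior count of 2) between the dominant and the submissive mouse of each cage (x axis), with 1 point per gene and the dotted line dividing males from females. The 9 genes of a cage lie on the same side of zero in cages 1, 2, 4, 5 and 7 of the males and 1, 2 and 4 of the females, and the Pcp2 value of male cage 1 depends on the prior count because dominant male 1 had 0 counts.

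Between 12403943 and 16488762 reads were counted per library, so depth differed little between libraries. Each of the 54 pairs of libraries within a group differed by more than sampling noise, and each was counted as 1 sample.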

How the data were processed

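Total RNA-seq of the right hemisphere of 22 mice was analysed. Per the labels and the study's methods, the authors depleted ribosomal RNA, made stranded libraries, used cutadapt 1.15 for trimming and STAR 2.6.0a for mapping to mm10, and deposited raw counts per gene from featureCounts 1.6.2, with 1 table per sex. The strand setting of the counting is not given in the sources used here. CPM were computed from the deposited counts with TMM factors of edgeR 4.0.16 (R 4.3.3) within each table, and per kilobase with the exon lengths of the tables. Low genes were removed by edgeR's filter (count of 10, total of 15).

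Rank was tested within each sex by edgeR's quasi-likelihood test with rank as the only term and Benjamini-Hochberg adjustment over all genes, and the test was checked on simulated data. Alternatives were DESeq2 1.42.0, its size factors, no filter, the cage as a block and leaving out each library. The labels do not say more of the replicates than that they are separate animals. Same-numbered samples share a cage according to the library names, and their deviations from the group means had a mean correlation of 0.177 in males and 0.0239 in females, against −0.0294 and −0.00797 for other pairs.

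The 9 genes and all lists were chosen with earlier results of these data known. Named are the 9 genes, genes of a list of 32 other Purkinje cell genes, some of which are not reported here, and of the marker lists, and the 10 genes most like the 9 over 22 and over 21 libraries. The 14 genes under 5% in dominant male 1 were named after their values were seen. The level in 1 library against a median has no test. Intervals are exact Poisson, at 95%. Lines are least squares on CPM. Promoters came from RefSeq, and gene positions and exon lengths from the deposited count tables.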

Additional observations from a re-analysis of the deposited data

Results flagged for a closer look

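The lowest library of a group stood apart from its neighbours by Dixon's criterion in 12 of 36 combinations of gene and group. Chance gives about 1 in 20 for genes picked without regard to their values, but these 9 genes were chosen for how they varied in these libraries and move together. The 12 are therefore a description and not separate findings. In the dominant males it was dominant male 1 for 6 genes, with 0 CPM of Pcp2, 18.2 CPM of Car8, 2.41 CPM of Arhgef33, 160.8 CPM of Calb1, 10.2 CPM of Slc1a6 and 5.81 CPM of Atp2a3. In the submissive males it was submissive male 4 for 5 genes, with 223.1 CPM of Car8, 19.6 CPM of Arhgef33, 266.8 CPM of Calb1, 18.5 CPM of Slc1a6 and 25.5 CPM of Homer3. In the dominant females it was dominant female 4, with 338.0 CPM of Calb1. Pcp2 in submissive male 4, at 19.9 CPM, and Ppp1r17 and Rgs8 in either male were not among the 12.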

How the results depend on the processing

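The number of genes over 25% in dominant male 1 was 3 in all 16 alternatives of reference and scaling. The number under 5% was 3 in all but 1 of them. It was 2 with the other dominant males as reference, where Car8 was at 5.02%, against 4.66% to 4.85% in the other alternatives. The median in submissive male 4 was 58.3% and lay between 58.1% and 58.6% when each reference male was left out. The level at zero granule cell signal was not stable. Its median of 41.3% became 16.6% with all 14 males, 59.1% without submissive male 4, 55.9% with Gabra6 alone, 21.5% with Pcp2 in 13 males (over 8 genes), 22.4% with Pcp2 in those males without submissive male 4, −10.9% in cages 1 to 4, 29.9% in cages 5 to 7 and 11.7% in the 8 females, and leaving out each male gave 26.2% (without dominant male 5) to 59.1% (without submissive male 4). The settings with Pcp2, by cage and in females were chosen after the data were seen, and the cause was not tested.

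The number of the 9 genes called by rank was 0 in all 20 alternatives in males and 12 in females, including 0 with the cage as a replicate block in each sex. The block raised the unadjusted calls over all genes in males from 194 to 338. Over all genes in females, 14 calls became 77 with DESeq2, 84 with no filter, 36 with the block and 0 to 77 when a library was left out.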
